A study of Mus musculus with 13 samples.

Results

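The genes described are 5 matrix metalloproteinases (Mmp2, Mmp3, Mmp12, Mmp14 and Mmp19) and 3 tissue inhibitors of metalloproteinases (Timp1, Timp2 and Timp3), taken by name from the deposited transcript tables, 8 of the 14078 genes measured in every library. Mmp3 and Mmp12 were selected on their large rise in FPKM and read counts after TAM in these same libraries, so their values are given as a description and without a test. The other 6 genes were tested in a fit of all genes, though they too were chosen with earlier results of these data known. RNA came from adrenal gland of the C57BL/6 strain, with 5 libraries sampled before TAM, 4 at 24 h and 4 at 8 weeks. TAM triggers deletion of Star, which encodes the carrier that supplies mitochondria with cholesterol for steroid synthesis. The sources used here do not name the promoter of the recombinase, and no label ties a library to an animal of its own, so the spread behind the p-values may be technical. No mice given TAM without the deletion were analysed here, and therefore effects of TAM, of time and of the deletion cannot be told apart.

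Matrix metalloproteinases are zinc-dependent enzymes that cut collagens, elastin, proteoglycans and many cell surface and soluble proteins outside the cell. They are made as inactive precursors that are activated by removal of a propeptide, and the tissue inhibitors block the active enzymes by binding in the catalytic cleft. Macrophages and fibroblasts are known sources of many of these enzymes and inhibitors, and mRNA levels do not report the activity of the enzymes.

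Listed reads ran from 17331673 to 27309429 per library. Star stood at 3207 to 4239 FPKM (fragments scaled to transcript length and library total, a level per length) before TAM, at 17.4 to 626 at 24 h and at 85.9 to 202 at 8 weeks. Cortex markers, 8 genes of steroid synthesis and its control, were detected in every library and summed to 18646 to 30487 FPKM before TAM. Some libraries stood apart. The 24 h replicate 3 had cortex, medulla and fat cell markers at -5.93, -6.50 and -5.69 on the log2 scale relative to the mean of the before libraries. In 24 h replicate 4 the medulla markers stood at -4.86, in before replicate 1 the fat cell markers stood at -4.07, and in 8-week replicate 1 the neutrophil markers stood at 6.87. Several fitted changes that rest on these libraries are given with and without them, whereas ranges, means and sums include all libraries unless stated. Without 24 h replicate 3 the 24 h levels of Star ran from 208 to 626 FPKM. Fat cell markers summed to 185 to 1845 FPKM before TAM and to 7680.4 to 15598 at 8 weeks. Medulla markers summed to 1187 to 5200.0 FPKM before TAM and to 5197 to 7698 at 8 weeks. The part of these markers in the 8-week levels of the 8 genes was not tested. Fewer cells of a type and less RNA per cell cannot be told apart in RNA from whole glands.

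Mmp12, the macrophage metalloelastase that cuts elastin, had the highest level of the 8 genes at 8 weeks and only the sixth highest before TAM. In the 5 before libraries it was measured at 24.7, 24.8, 7.93, 4.09 and 7.75 FPKM, in the 4 libraries of 24 h at 130.0, 93.5, 148 and 272 FPKM, and in those of 8 weeks at 491, 622, 412 and 344 FPKM. All 24 h values lay above all before values, and all 8-week values lay above all 24 h values. The mean level went from 13.8 ± 10.1 FPKM (SD, n = 5) to 161 ± 77.4 (SD, n = 4) and 467 ± 119 (SD, n = 4), a ratio of means of 33.7 between 8 weeks and before and of 11.6 between 24 h and before. The fitted log2 fold changes were 5.21 (SE 0.57) at 8 weeks and 3.59 (SE 0.53) at 24 h, and 5.18 and 3.70 without 24 h replicate 3. The 24 h value was 3.07 without 24 h replicates 3 and 4.

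Summed macrophage marker levels rose beside Mmp12. The summed FPKM of the 11 measured of 12 macrophage markers, led by Lyz2 and Ctss, was 406 to 1101 before TAM, 2375 to 4176 at 24 h and 5218 to 10101 at 8 weeks, with none of them at 0 in any library. The 9 markers of lipid-laden macrophages, led by Gpnmb and Fabp5, summed to 255 to 409, 1225 to 2891 and 4376 to 5956 FPKM. The macrophage sum leans on Lyz2, with a mean of 1496 FPKM at 24 h and 4506 at 8 weeks. The median log2 fold change of the macrophage markers was 2.19 at 24 h and 2.02 at 8 weeks, beside 3.59 and 5.21 for Mmp12. For the lipid-laden markers it was 3.02 and 4.58. The lowest 24 h macrophage sum was in replicate 3, where Mmp12 was at 148 FPKM, above replicates 1 and 2. Expressed as a percentage of the macrophage marker sum, Mmp12 lay between 1.01% and 2.40% before TAM (median 1.45%), between 2.55% and 7.61% at 24 h (median 4.66%) and between 5.59% and 6.59% at 8 weeks (median 6.25%). As a percentage of the lipid-laden marker sum the medians were 3.11%, 8.66% and 8.92%. The ranges on that scale were 1.48% to 7.42%, 7.63% to 11.2% and 7.86% to 10.4%, so the highest before library was close to the lowest later ones. On both scales every later library stood above every before library, and the 24 h and 8-week ranges overlapped. The part of the macrophage markers in the level of Mmp12 was not tested.

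**Figure D1:**
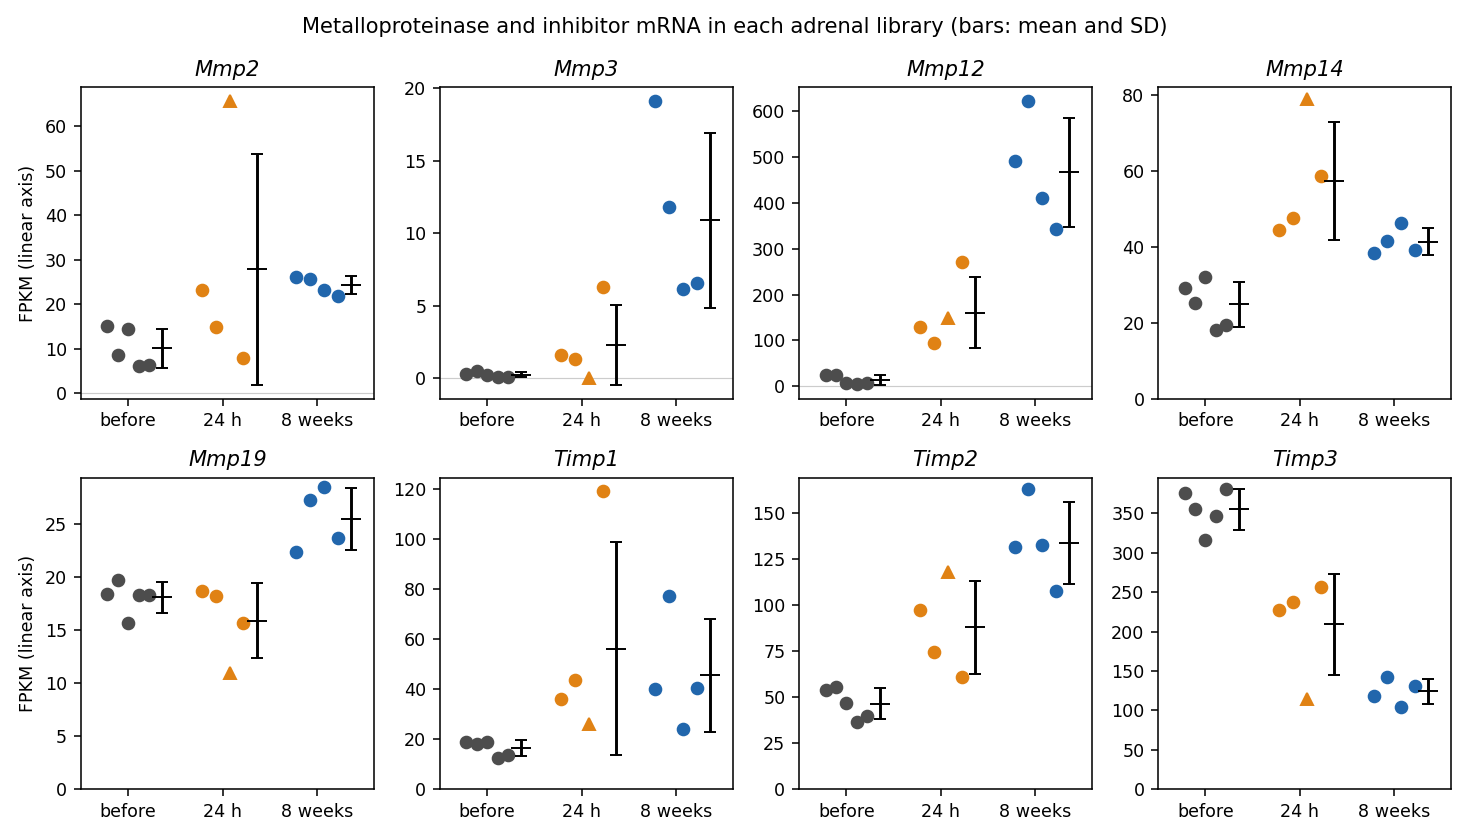
FPKM of each gene in each library (points; triangle, 24 h replicate 3) with the group mean and SD (black bars) in the groups from before TAM (n = 5), 24 h (n = 4) and 8 weeks (n = 4), on linear axes that differ between panels. Mmp12 steps up from at most 24.8 FPKM before to at least 344 FPKM at 8 weeks, while Timp3 steps down from at least 316 to at most 142 FPKM.

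Mmp3, stromelysin 1, which cuts proteoglycans and basement membrane proteins and can activate other metalloproteinase precursors, was the lowest of the 8 genes in each group. Its levels before TAM were 0.317, 0.474, 0.194, 0.111 and 0.0806 FPKM, from 3 to 21 reads per library. At 24 h they were 1.59, 1.32, 0 and 6.28 FPKM, and at 8 weeks 19.1, 11.8, 6.13 and 6.57 FPKM, from 228 to 985 reads. All 8-week libraries lay above all before libraries, whereas the 24 h libraries overlapped with both groups. The 0 was in 24 h replicate 3, where the 3 reads that a count of 0 allows would be 0.0531 FPKM, counting error only. Fitted log2 fold changes were 5.62 (SE 1.09) at 8 weeks and 3.34 (SE 1.02) at 24 h, and 5.58 and 3.78 without 24 h replicate 3. The 24 h libraries included replicate 4, with 250 reads, and the 24 h value was 2.05 without it and 2.64 without replicates 3 and 4. Before TAM Mmp3 was near the limit of detection, so the size of its fold change is poorly determined.

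Mmp12 and Mmp3 lie on the plus strand of chromosome 9 of mm10, at chr9:7347374-7360461 and chr9:7445822-7455974, with 85360 bases between them. Because these neighbours are the pair selected on their rise, the 250 bases before each listed transcript start are shown, from RefSeq on GRCm38.p6. They are chr9:7347124-7347373 for Mmp12 and chr9:7445572-7445821 for Mmp3, plus strand, written 5′ to 3′. Capitals mark a match to TGANTCA, the element bound by AP-1 factors, which was searched on both strands.
Mmp12: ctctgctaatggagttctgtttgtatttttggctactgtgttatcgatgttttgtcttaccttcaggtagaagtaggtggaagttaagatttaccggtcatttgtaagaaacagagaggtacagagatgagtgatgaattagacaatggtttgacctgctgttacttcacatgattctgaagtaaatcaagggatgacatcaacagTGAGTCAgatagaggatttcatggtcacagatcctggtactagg
Mmp3: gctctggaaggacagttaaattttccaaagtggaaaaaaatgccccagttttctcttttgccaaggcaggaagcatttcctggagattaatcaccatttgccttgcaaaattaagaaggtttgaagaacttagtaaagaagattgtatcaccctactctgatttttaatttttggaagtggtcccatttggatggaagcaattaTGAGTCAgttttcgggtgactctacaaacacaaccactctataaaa
The match TGAGTCA lies at -44 to -38 of the Mmp12 start and at -46 to -40 of the Mmp3 start, counting the base before the start as -1. TGANTCA was present in 6.75% of all 32851 windows of 250 bases and in none of the windows of Mmp14, Timp1, Timp2 and Timp3, nor in that of a second annotated Mmp12 start 2977 bases upstream. The windows of Mmp2 and Mmp19 were not analysed here. The ETS element AGGAAG, on both strands, was in the Mmp3, Mmp14, Timp1 and Timp3 windows and that of the upstream Mmp12 start, and in 29.5% of all windows. TATAAA on the plus strand was in the Mmp3 window at -7 to -2 and in 7.59% of all windows. A match describes the letters only and is neither a site shown to be bound nor a cause.

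Mmp2 (chr8:92827465-92853557, plus strand), gelatinase A, which cuts denatured collagen and type IV collagen, rose by 8 weeks. Its levels were 15.1, 8.54, 14.5, 6.26 and 6.43 FPKM before TAM, 23.3, 14.9, 65.6 and 7.92 at 24 h, and 26.2, 25.8, 23.2 and 22.0 at 8 weeks. The 8-week libraries were close together and all above the before libraries, whereas the 24 h libraries spread from inside the before range to 65.6 in replicate 3. It rose by 1.39 log2 units (SE 0.47, adjusted p = 0.033, edgeR's quasi-likelihood test with Benjamini-Hochberg adjustment over all genes) by 8 weeks and by 1.42 (SE 0.47, adjusted p = 0.049) by 24 h. Without 24 h replicate 3 the 24 h value was 0.66 (adjusted p = 0.18) and the 8-week value 1.35 (adjusted p = 0.0047). The 8-week call was lost without before replicate 2, 4 or 5 or 8-week replicate 1, 2 or 3 (adjusted p from 0.061 to 0.078). Leaving out before replicate 2, 4 or 5, 24 h replicate 1 or any 8-week library also ended the 24 h call, with adjusted p from 0.061 to 0.11.

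Mmp14 (chr14:54431604-54441258, plus strand), the membrane-anchored enzyme that cuts fibrillar collagen and activates the Mmp2 precursor, rose by 24 h and was still raised at 8 weeks. It was measured at 29.0, 25.1, 32.1, 18.1 and 19.4 FPKM before TAM, at 44.3, 47.5, 78.9 and 58.5 at 24 h and at 38.4, 41.4, 46.2 and 39.1 at 8 weeks. Both later groups lay above the before group without overlap. The fitted difference from before was 1.22 on the log2 scale at 24 h (SE 0.20, adjusted p = 0.0014). At 8 weeks it was 0.87 (SE 0.20, adjusted p = 0.0051), and the calls held without 24 h replicate 3 (1.10 and 0.84). Between 8 weeks and 24 h the difference was -0.35 (SE 0.22, adjusted p = 0.26), which did not pass the test.

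Mmp19 (chr10:128790910-128800824, plus strand), a secreted enzyme that cuts basement membrane components, rose at 8 weeks and not detectably at 24 h. Levels were 18.4, 19.7, 15.7, 18.3 and 18.3 FPKM before TAM, 18.7, 18.2, 11.0 and 15.7 at 24 h, and 22.4, 27.3, 28.5 and 23.7 at 8 weeks. Each 8-week library exceeded every library of the other groups. On the log2 scale the difference was 0.65 (SE 0.17, adjusted p = 0.0098) from before to 8 weeks, 0.79 (SE 0.18, adjusted p = 0.013) from 24 h to 8 weeks and -0.14 (SE 0.17, adjusted p = 0.61) from before to 24 h. With only those groups in the fit the call between 24 h and 8 weeks was lost (0.74, adjusted p = 0.068). Mmp19 lies within an antisense gene and shares part of its locus with Tmem198b on the other strand (mean 5.46, 6.50 and 7.76 FPKM in the 3 groups in order of time). Since the counting is not stated to use strand, reads of the overlapping genes cannot be told apart.

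Fibroblast and capsule markers (11 genes, led by Dcn and Col3a1, none at 0) summed to 217 to 547 FPKM before TAM, 745 to 1138 at 24 h and 1172 to 1968 at 8 weeks, beside the changes of Mmp2, Mmp14 and Timp2. As a percentage of that sum, Mmp14 had a median of 8.07% before, 6.40% at 24 h and 2.85% at 8 weeks, Timp2 one of 16.6%, 9.71% and 8.74%, and Mmp2 one of 2.67%, 2.12% and 1.75%. Relative to this sum the medians of all 3 genes were lower after TAM. The before and 8-week ranges overlapped for Timp2 (8.54% to 20.9% and 8.12% to 10.8%) and Mmp2 (1.84% to 5.84% and 1.31% to 1.88%). Those of Mmp14 did not (5.41% to 11.3% and 2.10% to 3.76%). The sum leans on Dcn, with a mean of 131 FPKM before TAM and 757 at 8 weeks. The median log2 fold change of the 11 markers at 8 weeks was 1.70, beside 1.65 for Timp2, 1.39 for Mmp2 and 0.87 for Mmp14. The part of the fibroblast markers in these changes was not tested.

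Among the inhibitors, Timp1 (chrX:20870166-20874737, plus strand), which is secreted and also binds the Mmp9 precursor, rose by 24 h and 8 weeks. It was at 18.7, 18.2, 19.0, 12.4 and 13.6 FPKM before TAM, at 35.9, 43.7, 25.9 and 119 at 24 h and at 39.9, 77.2, 24.2 and 40.6 at 8 weeks. All later libraries lay above all before libraries, and the later groups overlapped, with 24 h replicate 4 the highest. It rose by 1.84 log2 units by 24 h (SE 0.43, adjusted p = 0.01) and by 1.57 by 8 weeks (SE 0.43, adjusted p = 0.012). Without 24 h replicate 4 the 24 h value was 1.10 (adjusted p = 0.029). Timp1 lies within Syn1, which runs on the opposite strand and had a mean of 4.99, 5.23 and 10.9 FPKM in the 3 groups in order of time. A further listed transcript, NM_001294280, was not shared by the tables and is left out of these sums.

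Timp2 (chr11:118301061-118355411, minus strand), which inhibits most members of the family and takes part with Mmp14 in activating the Mmp2 precursor, rose in steps. Its levels were 53.9, 55.8, 46.7, 36.7 and 40.0 FPKM before TAM, 97.7, 74.9, 118 and 61.2 at 24 h and 132, 163, 133 and 108 at 8 weeks. Neither later group overlapped with the before group, and the later groups overlapped only through 24 h replicate 3 and 8-week replicate 4. It rose by 0.92 log2 units by 24 h (SE 0.19, adjusted p = 0.005), by 1.65 by 8 weeks (SE 0.19, adjusted p = 4.5e-05) and by 0.73 (SE 0.20, adjusted p = 0.025) from 24 h to 8 weeks. That last call was lost without 24 h replicate 2 or 4 or 8-week replicate 2 or 3, with adjusted p from 0.054 to 0.064.

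Timp3 (chr10:86300412-86349505, plus strand), the inhibitor that is held in the extracellular matrix and also blocks several ADAM and ADAMTS proteases, fell. It was the most abundant of the 8 transcripts before TAM, at 376, 356, 316, 346 and 381 FPKM. At 24 h it was at 227, 237, 114 and 257 FPKM and at 8 weeks at 118, 142, 104 and 131 FPKM. Every later library lay below every before library, and 24 h replicate 3 fell within the 8-week range. Its change was -1.39 log2 units by 8 weeks (SE 0.24, adjusted p = 7.8e-04) and -0.72 by 24 h (SE 0.24, adjusted p = 0.049). The 24 h call was lost when any before or any 8-week library, or 24 h replicate 1 or 2, was left out (adjusted p from 0.059 to 0.11), and without 24 h replicate 3 it was -0.48 (adjusted p = 0.023). From 24 h to 8 weeks the change was -0.67 (SE 0.25, adjusted p = 0.067), and -0.95 (adjusted p = 0.001) without 24 h replicate 3.

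Of the 8 cortex markers, 5 were called lower at 8 weeks, beside Timp3, where 16.4% of all genes were. At 24 h 2 of the 8 were called lower, where 6.63% of all genes were. The sum of the 8 markers was 4218 to 27462 FPKM at 24 h and 1760.0 to 4544 at 8 weeks. The lowest 24 h sum was in replicate 3, which also had the lowest 24 h level of Timp3. In 24 h replicates 1, 2 and 4 the sums were 16412, 27462 and 21144 FPKM, with Timp3 at 227, 237 and 257 FPKM. The sums of replicates 2 and 4 lay within the before range of 18646 to 30487, whereas their Timp3 levels lay below every before library. As a percentage of the cortex marker sum Timp3 ran from 1.04% to 1.95% before TAM, from 0.861% to 2.71% at 24 h and from 3.11% to 6.71% at 8 weeks. At 8 weeks the cortex markers were thus lower by a larger ratio than Timp3. The part of the cortex markers in the fall of Timp3 was not tested. Syn3, on the opposite strand around Timp3, had a mean of at most 0.788 FPKM in each group.

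**Figure D2:**
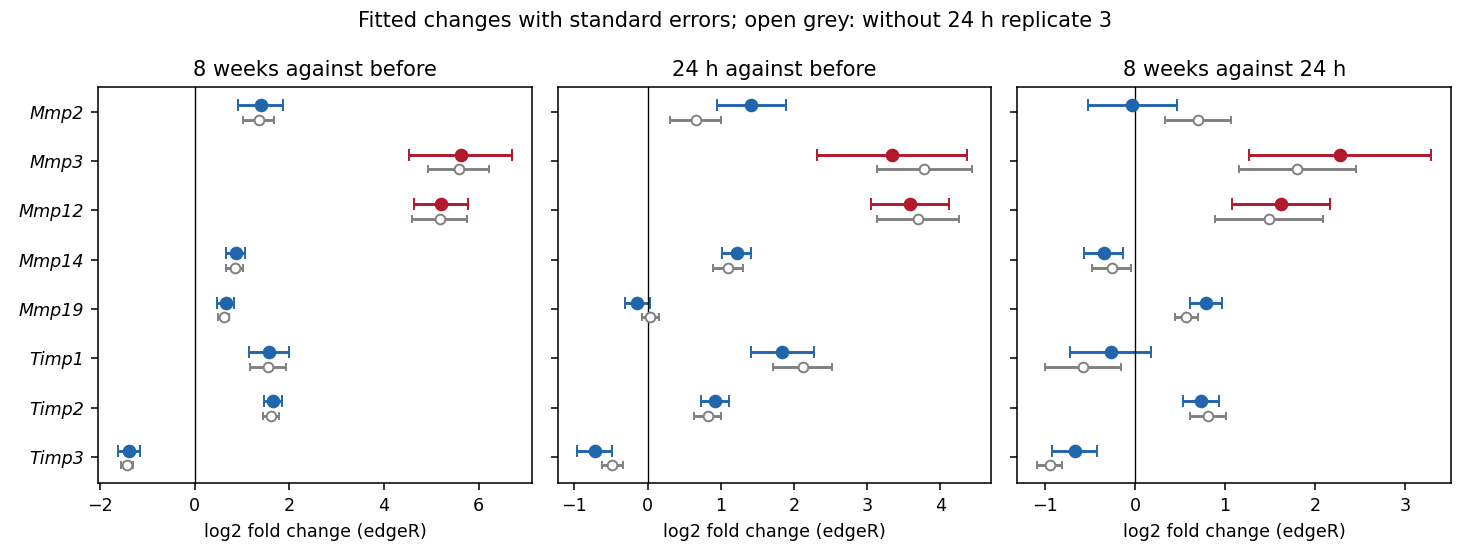
Fitted log2 fold changes with standard errors for the 8 genes in the 3 comparisons (filled; red for Mmp3 and Mmp12, which were picked for their rise), and the same fit without 24 h replicate 3 (open grey); the x axes differ. At 8 weeks against before, Timp3 alone lies below 0, at -1.39.

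Of the 6 tested genes, 5 rose and 1 fell at 8 weeks against before, where 36.9% of all genes were called (20.5% higher and 16.4% lower). At 24 h against before 4 rose, 1 fell and Mmp19 did not pass, where 19.2% of all genes were called (12.6% higher and 6.63% lower). At 8 weeks against 24 h Mmp19 and Timp2 were called higher and 4 genes did not pass, where 20.8% were called (10.1% higher and 10.6% lower). In FPKM, 18.1% of all genes at 8 weeks had every library above the before group and 26.5% had every library below it. At 24 h against before those shares were 9.75% and 8.01%, and 9.92% of genes had all 8-week libraries above all 24 h libraries. The median log2 fold change of all genes was 0.03 at 8 weeks and at 24 h against before. The first 2 comparisons share the before libraries, so their directions are not independent. The 6 genes were chosen with earlier results of these data known, so their counts beside these shares are a description.

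The order of levels changed between the groups. Before TAM, Timp3 lay above Timp2 and Timp2 above the rest without overlap, the ranges of Mmp14, Mmp19, Timp1, Mmp12 and Mmp2 overlapped with their neighbours in that order, and Mmp3 was lowest. At 24 h Timp3, Mmp12, Timp2, Mmp14, Timp1, Mmp2 and Mmp19 followed each other with overlap at each step. At 8 weeks Mmp12 stood alone at the top, Timp2 and Timp3 overlapped behind it, Timp1 overlapped with Mmp14 and Mmp19 with Mmp2, and Mmp3 was lowest.

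The sum of the 5 proteinases was 46.9 to 87.5 FPKM before TAM, 175 to 360.3 at 24 h and 435 to 728 at 8 weeks. That of the 3 inhibitors was 382 to 449, 259 to 438 and 261 to 381 FPKM. The ratio of the sums was 0.160 ± 0.0376 (SD, n = 5) before TAM, 0.773 ± 0.299 (SD, n = 4) at 24 h and 1.88 ± 0.221 (SD, n = 4) at 8 weeks. These sums include the genes picked for their rise and carry no test. Mmp12 made up 18.9 ± 10.3% of the proteinase sum before TAM and 81.6 ± 2.88% at 8 weeks (SD). Without Mmp12 the proteinase sum was 53.2 ± 9.56 FPKM before TAM, 103 ± 34.8 at 24 h and 102 ± 7.10 at 8 weeks (SD). In 24 h replicate 3 that sum was 155 FPKM and the ratio of the sums was 1.17, each the highest of the 24 h group. Timp3 went from 84.9 ± 2.49% of the inhibitor sum before TAM to 41.1 ± 4.09% at 8 weeks, and Timp2 from 11.1 ± 1.76% to 44.4 ± 5.15% (SD).

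**Figure D3:**
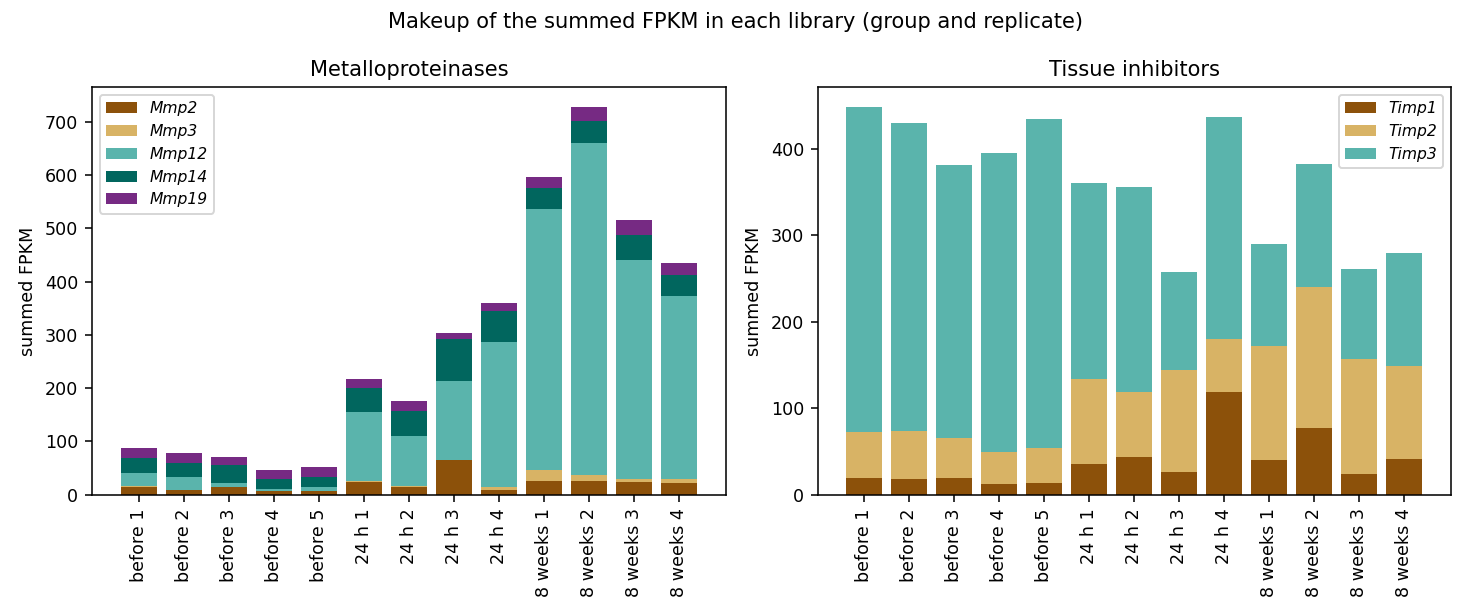
Summed FPKM of the 5 metalloproteinases (left) and the 3 inhibitors (right) in each of the 13 libraries, stacked by gene, on linear axes from 0. Mmp12 fills most of the 8-week bars on the left, 79.0% to 85.4%, and Timp3 shrinks on the right from a mean of 84.9% before TAM to 41.1% at 8 weeks.

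The 24 h libraries differed among themselves. Replicate 3 held the highest or the lowest 24 h value of each of the 8 genes except Mmp12, with Mmp2, Mmp14 and Timp2 highest and Mmp3, Mmp19, Timp1 and Timp3 lowest. Replicate 4 had the highest Mmp12, Mmp3, Timp1 and Timp3. Among the 24 h libraries, the marker lists that were lowest in replicate 3 include cortex, medulla, fat cell, red blood cell, endothelial and macrophage markers. Fibroblast and capsule markers (sum 1138 FPKM) and smooth muscle and pericyte markers (sum 218 FPKM) were highest there. The part of the marker lists in these values was not tested.

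**Figure D4:**
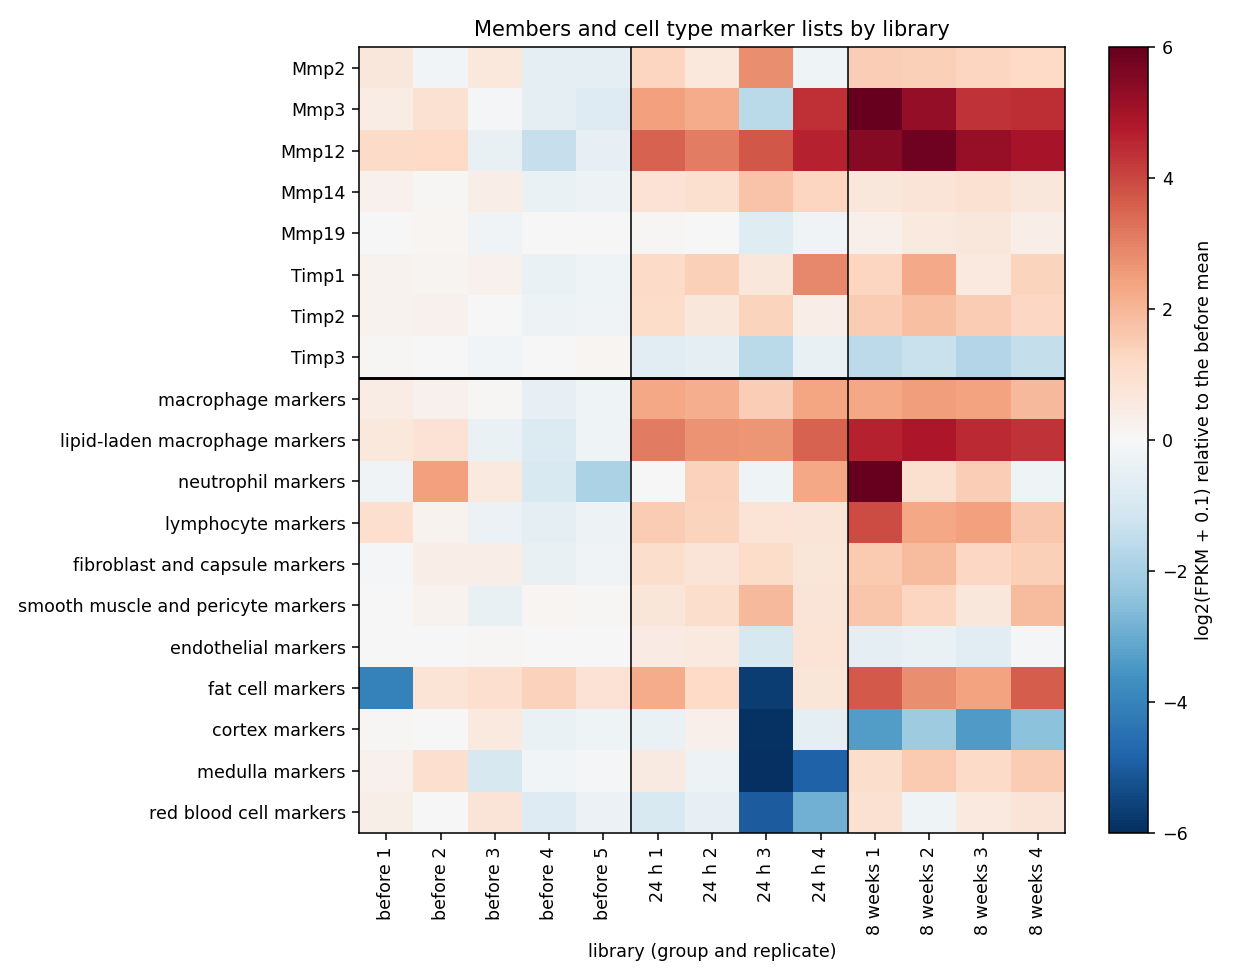
Level of each of the 8 genes (top, log2(FPKM + 0.1)) and mean level of each marker list (bottom) in each library relative to the mean of the before libraries, with colours clipped at 6 either way. Macrophage and lipid-laden macrophage markers are high in every later library, and 24 h replicate 3 is low in cortex (-5.93), medulla (-6.50) and fat cell (-5.69) markers. At 8 weeks the fat cell markers stand at 2.4 to 3.7 and the medulla markers at 1.04 to 1.57.

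Of 18 other metalloproteinases listed, 11 were measured on transcripts shared by the tables, 5 rose and none fell at 8 weeks, and 4 rose and none fell at 24 h, with list medians of 1.29 and 1.17 on the log2 scale. Without 24 h replicate 3 the 8-week count was 8. With all libraries, 20.5% of all genes rose and 16.4% fell at 8 weeks, and 12.6% rose and 6.63% fell at 24 h. Mmp17, a membrane-anchored member, rose from 0.665 ± 0.153 FPKM (SD, n = 5) to 1.66 ± 0.610 (SD, n = 4) at 8 weeks (log2 fold change 1.45, SE 0.27, adjusted p = 0.0014). Mmp23 rose from 3.28 ± 1.31 to 11.1 ± 2.51 FPKM (SD; log2 fold change 1.89, SE 0.33, adjusted p = 9.1e-04). Mmp15 was the fifth gene called higher.

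Mmp11, stromelysin 3, was at 3.02 to 10.2 FPKM before TAM, at 5.61, 3.90, 101 and 6.42 at 24 h and at 7.37 to 11.1 at 8 weeks. Only 24 h replicate 3 lay above the other libraries. The difference from before did not pass at 24 h (2.41, SE 0.80, adjusted p = 0.052) or at 8 weeks (0.92, SE 0.78, adjusted p = 0.38). Without 24 h replicate 3 it was 0.11 (adjusted p = 0.84) at 24 h and 0.89 (adjusted p = 0.028) at 8 weeks, and leaving out before replicate 1 or 24 h replicate 1, 2 or 4 brought the 24 h value past the threshold (adjusted p from 0.024 to 0.049).

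Mmp8, neutrophil collagenase, and Mmp9, gelatinase B, also rose at 8 weeks, by 4.93 (SE 0.97, adjusted p = 0.0018) and 3.23 (SE 0.75, adjusted p = 0.0051) on the log2 scale. The 8-week levels of Mmp8 were 18.2, 2.39, 1.21 and 0.783 FPKM and those of Mmp9 were 11.0, 1.27, 1.71 and 2.01 FPKM. Both were highest in replicate 1, without which the log2 fold changes were 2.99 (adjusted p = 0.0054) and 1.98 (adjusted p = 0.027). In that library the 3 measured of 8 neutrophil markers summed to 1819.9 FPKM, against a median of 20.7 in its group, and their part in these values was not tested.

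Mmp13, a collagenase, and Mmp27 were called at 24 h and, with all libraries in the fit, not at 8 weeks. Mmp13 was at 0.798 to 3.12 FPKM before TAM, at 11.1, 9.93, 1.99 and 17.5 at 24 h and at 1.42 to 1.74 at 8 weeks. Among the 24 h libraries only replicate 3 lay within the before range, as did all 8-week libraries. Mmp13 rose by 2.54 log2 units by 24 h (SE 0.51, adjusted p = 0.0045). At 8 weeks the difference from before was -0.07 (SE 0.51, adjusted p = 0.93) at 8 weeks, and the change from 24 h to 8 weeks of -2.61 (SE 0.56, adjusted p = 0.01) passed the test. Mmp27 rose by 2.74 (SE 0.57, adjusted p = 0.0054) at 24 h. Without before replicate 4 that value was 3.34 (adjusted p = 0.0023), and Mmp27 was then also called at 8 weeks (1.88, adjusted p = 0.017).

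Among 12 other inhibitors and regulators of metalloproteinases 2 rose and 2 fell at 8 weeks, and 2 rose and 1 fell at 24 h, with list medians of 0.67 and -0.05. These counts are close to the shares of all genes, 20.5% higher and 16.4% lower at 8 weeks and 12.6% and 6.63% at 24 h. Tfpi2, a Kunitz-type inhibitor of serine proteases, rose by 2.08 (SE 0.30, adjusted p = 2.4e-04) and Thbs2, a thrombospondin that mediates the clearance of Mmp2, by 2.44 (SE 0.40, adjusted p = 4.9e-04) at 8 weeks. Furin, a convertase that activates membrane-anchored metalloproteinases, fell by 0.94 (SE 0.34, adjusted p = 0.047), a call that was lost without any one of the before libraries, 24 h replicate 2 or 8-week replicate 1, 2 or 4 (adjusted p from 0.056 to 0.13). A2m, a broad protease trap, fell by 5.51 (SE 1.39, adjusted p = 0.0081) at 8 weeks. It was at 59.1 FPKM in before replicate 1 and at 1.48 to 6.75 in the other before libraries, and without that replicate the change was -3.37 (adjusted p = 0.018). Without 8-week replicate 1 it was -7.51 (adjusted p = 0.0054). Thbs1, the other thrombospondin, was called at 24 h (log2 fold change 3.35, SE 0.83, adjusted p = 0.014) with 215 FPKM in replicate 3 and at most 20.3 in the other 24 h libraries, and the value was 1.33 (adjusted p = 0.046) without replicate 3.

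Of 18 ADAM and ADAMTS proteases, relatives that shed membrane proteins or cut matrix proteins and part of which Timp3 inhibits, 9 rose and none fell at 8 weeks and 8 rose and none fell at 24 h, with list medians of 0.99 and 0.67. Without 24 h replicate 3 there were 11 higher and 1 lower at 8 weeks. The shares of all genes, with all libraries, were 20.5% higher and 16.4% lower at 8 weeks and 12.6% and 6.63% at 24 h. At an unadjusted p under 0.05 by edgeR, and by DESeq2, 1 gene of this list was lower at 8 weeks, and 0 were lower at 24 h. Adamts2, which trims procollagen, rose from 2.66 ± 0.904 FPKM (SD, n = 5) to 14.5 ± 4.30 (SD, n = 4) at 8 weeks (log2 fold change 2.58, SE 0.30, adjusted p = 4.9e-05). Adam8, found on leukocytes, rose from 4.24 ± 1.86 to 34.4 ± 4.20 FPKM (SD; log2 fold change 3.15, SE 0.41, adjusted p = 1.0e-04). Adam19 rose by 1.13 (SE 0.16, adjusted p = 2.1e-04) and Adam12 by 1.82 (SE 0.35, adjusted p = 0.0015). Adam10, a sheddase, and Adamts4, an aggrecanase, rose at 24 h, by 0.66 (SE 0.15, adjusted p = 0.0078) and 3.43 (SE 0.74, adjusted p = 0.0064), and did not pass at 8 weeks with all libraries in the fit. The 24 h value of Adamts4 was 2.38 (adjusted p = 0.024) without 24 h replicate 4 and 4.15 (adjusted p = 0.0033) without before replicate 3. At 8 weeks Adamts4 was called without before replicate 3 (2.42, adjusted p = 0.02) or 24 h replicate 4 (1.66, adjusted p = 0.039), and Adam10 without 24 h replicate 3 (0.29, adjusted p = 0.043).

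Elastic fibre genes, among them Eln for the Mmp12 substrate elastin, moved in 1 direction among those called. Of 15 listed, 12 rose and none fell at 8 weeks and 8 rose and none fell at 24 h, with list medians of 1.53 and 1.20. Of all genes, 20.5% rose and 16.4% fell at 8 weeks, and 12.6% rose and 6.63% fell at 24 h. Beside them, 9 of 11 fibroblast and capsule markers (median 1.70) and 4 of 6 smooth muscle and pericyte markers (median 1.51) were called higher at 8 weeks, and 6 of 11 (median 1.23) and 4 of 6 (median 1.55) at 24 h. The part of these cell types in the elastic fibre values was not tested. The count of lower genes was also 0 at an unadjusted p under 0.05 by edgeR and by DESeq2, in this list, among the other metalloproteinases and in the plasminogen list, at both times. Eln rose by 1.77 (SE 0.50, adjusted p = 0.015) at 8 weeks, and its 24 h value of 1.12 (SE 0.50, adjusted p = 0.14) did not pass. At 24 h Eln was called without before replicate 3 (1.69, adjusted p = 0.019) or 24 h replicate 3 (1.43, adjusted p = 0.034). Fbln1, fibulin 1, rose from 5.67 ± 1.96 to 39.9 ± 13.5 FPKM (SD; log2 fold change 2.95, SE 0.42, adjusted p = 2.1e-04) at 8 weeks. Mfap4, a microfibril-associated protein, rose by 2.44 (SE 0.36, adjusted p = 2.5e-04), Loxl1, which crosslinks elastin, by 1.88 (SE 0.27, adjusted p = 2.2e-04) and Ltbp1, a microfibril protein that binds latent TGF-beta, by 1.34 (SE 0.16, adjusted p = 6.0e-05). Fbn2 and Mfap2 were called at 24 h and not at 8 weeks with all libraries in the fit. Both 24 h calls were lost without 24 h replicate 3, where the log2 fold changes were 0.22 (adjusted p = 0.81) and 0.97 (adjusted p = 0.053). The Fbn2 call was also lost without before replicate 2, 3, 4 or 5 or any 8-week library (adjusted p from 0.057 to 0.11), and that of Mfap2 without before replicate 5 (adjusted p = 0.054). At 8 weeks Mfap2 was called without 24 h replicate 3 (1.21, adjusted p = 0.0089) or before replicate 1 (1.52, adjusted p = 0.031).

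The plasminogen system activates several metalloproteinase precursors. Of its 11 listed genes 8 were measured, 4 rose and none fell at 8 weeks, and 4 rose and none fell at 24 h, with list medians of 0.76 and 0.71. Over all genes the shares were 20.5% higher and 16.4% lower at 8 weeks and 12.6% and 6.63% at 24 h. Plaur, the urokinase receptor, rose by 1.97 (SE 0.46, adjusted p = 0.005) at 8 weeks, and the plasminogen-binding proteins Plgrkt and S100a10 by 0.74 (SE 0.20, adjusted p = 0.012) and 0.78 (SE 0.20, adjusted p = 0.0099). Serpine2, which inhibits rather than activates plasminogen conversion, rose by 2.05 (SE 0.66, adjusted p = 0.028), a call lost without before replicate 3, 4 or 5 or 8-week replicate 1 or 2 (adjusted p from 0.053 to 0.064). Plau, urokinase, was called at 24 h with a change of 1.79 (SE 0.51, adjusted p = 0.029). Before replicate 1 held 46.6 FPKM of Plau against 7.06 to 8.07 in the other before libraries, and without it the change was 2.80 (adjusted p = 4.7e-06) at 24 h and 2.22 (adjusted p = 8.8e-06) at 8 weeks. Leaving out any other before library, or 24 h replicate 4, ended the 24 h call of Plau (adjusted p from 0.054 to 0.064). Plat, the tissue-type activator, rose by 1.09 (SE 0.25, adjusted p = 0.0088) at 24 h.

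AP-1 and ETS factors, of which the first group binds TGANTCA, did not move together. Of 12 listed, 11 were measured, 2 rose and 4 fell at 8 weeks, and 2 rose and 2 fell at 24 h, with list medians of -0.22 and -0.25. Beside this, 20.5% of all genes rose and 16.4% fell at 8 weeks, and 12.6% rose and 6.63% fell at 24 h. Fos, an AP-1 subunit, rose by 2.12 (SE 0.75, adjusted p = 0.04) at 8 weeks, from 1.66 to 48.3 FPKM before TAM to 44.0 to 123, ranges that overlapped. Its call was lost without before replicate 3 or 4 or 8-week replicate 2 or 4 (adjusted p from 0.081 to 0.091). Fosl2, another AP-1 subunit, fell by 1.86 (SE 0.26, adjusted p = 1.6e-04), Etv1 by 3.04 (SE 0.40, adjusted p = 1.1e-04) and Etv5 by 1.96 (SE 0.27, adjusted p = 1.5e-04) at 8 weeks on the log2 scale. Ets1 rose by 0.87 (SE 0.12, adjusted p = 5.2e-04) at 24 h and by 0.49 (SE 0.12, adjusted p = 0.0072) at 8 weeks, and Ets2 by 0.62 (SE 0.10, adjusted p = 0.0015) at 24 h.

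**Figure D5:**
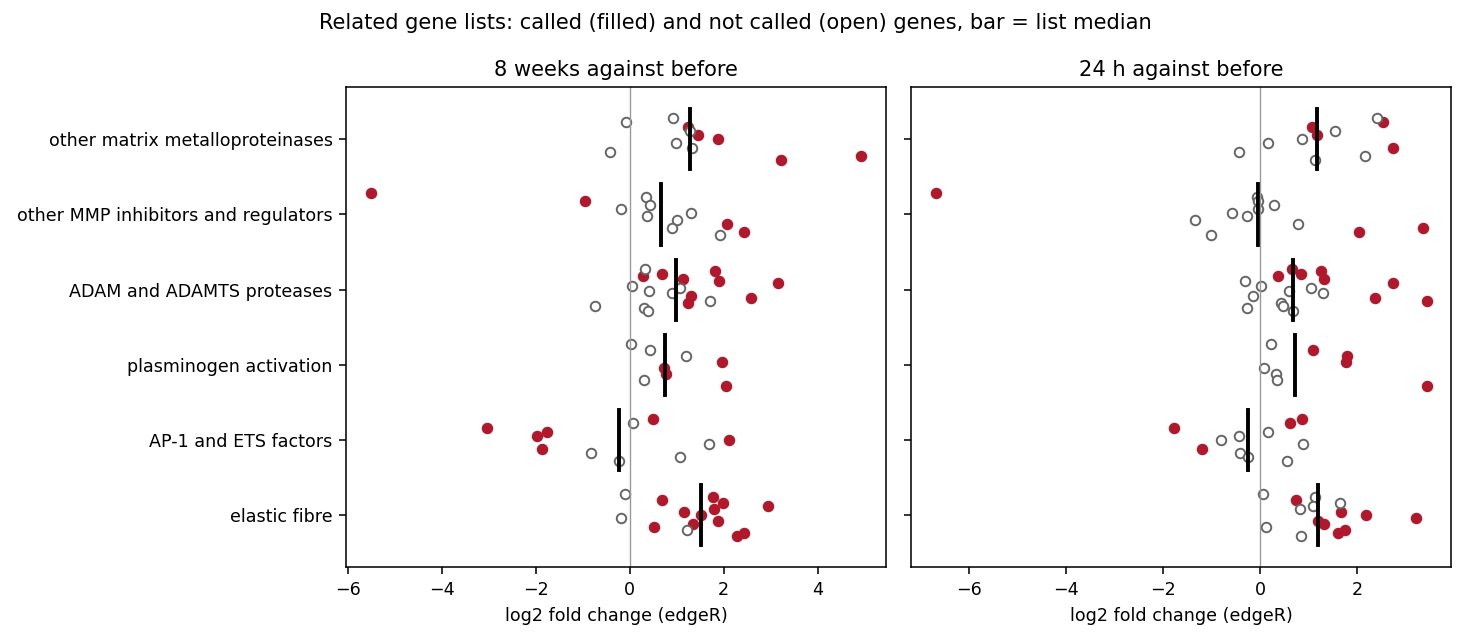
Log2 fold changes of the genes of 6 related lists at 8 weeks (left) and 24 h (right) against before, filled where called and open where not, with the list median as a black bar. The elastic fibre median lies at 1.53 on the left and that of the AP-1 and ETS factors at -0.22.

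The genes most like each member were found by the root mean square difference of log2 CPM (counts scaled to library size) over the 13 libraries, each gene centred on its own mean, among 13931 genes with a mean of at least 1 CPM. For Mmp12, whose values spanned 7.30 log2 units, the closest were Il1rn (0.24), Il7r (0.28) and Lgals3 (0.40). Il1rn had means of 0.816, 8.14 and 22.8 FPKM and Il7r of 1.10, 12.4 and 38.6 FPKM in order of time. For Mmp3, which spanned 8.79 units, the closest genes were farther away, with Chodl at 1.20 and Cox8b and Chil3 at 1.25. For Timp3 they were Col4a3bp (0.16), Map2k3 (0.17) and G6pc3 (0.18), and for Timp2 they were Dkk3 (0.16), Traf5 (0.18) and Pkia (0.20).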

How the data were processed

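Whole mouse adrenal RNA was sequenced with a TruSeq Stranded kit that selects mRNA, per the labels. The submitters' processing notes name bcl2fastq 2.17, TopHat2 2.0.14 and the build mm10 (GRCm38), and no source used here names the counting tool. Per the file headers, the deposited tables list an expected count and FPKM for each transcript. The counts are estimates, 43.3% to 46.4% of them whole to within 1e-06. A further table deposited by the authors compares 8 weeks with before, by log2 ratio, p-value and q-value. The 24 h table was deposited separately, and the 18738 transcripts shared by all tables were used.

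Both quantities were added up over the shared transcripts of a gene, and the summed expected counts were then rounded. A fit of all 13 libraries by edgeR 4.0.16 (R 4.3.3) used the quasi-likelihood test, TMM scaling and filterByExpr, which removed no gene, with Benjamini-Hochberg adjustment over all genes and a threshold of 0.05. A standard error is the log2 fold change over the root of its F statistic. The fit was run on data simulated from the means and spread of the before libraries, with changes at 8 weeks only. That simulation held no library that stood apart, so it does not cover the spread of the 24 h group. Members and gene lists were chosen with earlier results of these data known. Named genes were the members, Star, up to 4 genes per list called at 8 weeks in order of p and up to 2 called only at 24 h, the 2 most abundant markers per list and the 3 genes most like each member. Mmp11, Mmp15, Fos and Eln were named after their values were seen. Marker levels are log2(FPKM + 0.1). Alternatives were other scalings and filters, DESeq2 1.42.0, limma 3.58.1 with quality weights or on log2(FPKM + 0.1), a replicate block, fits of 2 groups and fits without libraries. Overlapping genes come from a GRCm38 annotation.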

Additional observations from a re-analysis of the deposited data

How the results depend on the processing

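None of the 8 genes changed direction between 8 weeks and before, or at 24 h with the exception of Mmp19, whose 24 h value was never called and ran from -0.22 to 0.08. Between 8 weeks and 24 h the direction changed among alternatives for Mmp2 (-0.35 to 0.7) and Timp1 (-0.61 to 0.44), which were never called there. All 24 alternatives called Mmp14, Mmp19, Timp2 and Timp3 at 8 weeks, 17 called Mmp2 and 23 called Timp1. Genes called at 8 weeks against before numbered 5193, and 8101 under limma with quality weights. At 24 h against before 2708 genes were called, and 5378 with quality weights, which lowered the share of higher calls from 65.5% to 53.0%. At 8 weeks against 24 h 2923 genes were called, and 973 with only those groups in the fit. Fitting only the groups compared left 3 of 5 members called at 24 h and 0 of 2 between 8 weeks and 24 h, with Mmp19 at an adjusted p of 0.068 and Timp2 at 0.093 by edgeR. In that fit 3 members had an unadjusted p under 0.05 between 8 weeks and 24 h. DESeq2, which was run on all 3 groups, called 3 members between 8 weeks and 24 h. The cause of the lost calls was not tested. Leaving out 1 library gave 4153 to 6706, 1851 to 3998 and 1782 to 4300 genes for 8 weeks against before, 24 h against before and 8 weeks against 24 h, and 5 to 6, 3 to 5 and 1 to 3 members. Without a scaling factor the median of all genes at 8 weeks was -0.097 in place of 0.03, and 44.2% in place of 55.5% of calls were higher. From 24 h to 8 weeks that share was 36.1% in place of 48.9%, the call of Timp2 was lost (adjusted p = 0.061) and Timp3 was called (adjusted p = 0.032). Timp3 was not called at 24 h in 15 of 23 alternatives and Mmp2 in 14 of 23.

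Replicate numbers did not pair the libraries, with correlations of same-numbered libraries from -0.13 to 0.28 and the highest with the own number in 2 of 12 cases. With the replicate block 1312 genes and 2 members were called at 24 h against before and 1661 genes at 8 weeks against 24 h, and Timp1 was not called at 8 weeks (adjusted p = 0.06) or 24 h (adjusted p = 0.093).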

Other observations

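Transcript models of 2 members could be separated in the tables, by estimated assignment of reads. Mmp19 transcript NM_021412 made up 20.7 ± 5.31% of Mmp19 FPKM before TAM (SD, n = 5), 40.9 ± 12.1% at 24 h (SD, n = 4) and 31.6 ± 14.4% at 8 weeks (SD, n = 4), and was untested. All 24 h libraries, from 29.1% to 53.5%, lay above the before range of 14.2% to 24.9%, and the 8-week libraries ran from 18.9% to 51.5%. Timp1 transcript NM_011593 made up 68.5 ± 4.23%, 63.2 ± 3.79% and 67.1 ± 5.51% in order of time (SD), with overlapping ranges. In the authors' deposited table the log2 ratio of 8 weeks over before was 0.26 for Mmp19 transcript NM_001164197 (q-value 0.18) and 1.04 for NM_021412 (q-value 0.07). The authors' deposited table gives Timp2 a log2 ratio of 1.52 (q-value 0.001) and Timp3 one of -1.53 (q-value 2.7e-04).

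The profiles nearest to the remaining members were Pcdhb5 (root mean square difference 0.30), Sparcl1 (0.33) and Tmem100 (0.33) for Mmp2, and Pla2g4a, Gpsm2 and Hpcal1 (each 0.20) for Mmp14. For Mmp19 they were Slco2b1 (0.12), Nagk (0.18) and Tmem219 (0.18). For Timp1 they were Icam1 (0.28), C5ar1 (0.32) and Tagln (0.34), the last a smooth muscle gene that went from 33.4 ± 10.3 FPKM before TAM (SD, n = 5) to 81.0 ± 27.9 at 8 weeks (SD, n = 4).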
